A study of Mus musculus with 9 samples.

Results

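High-voltage-activated calcium channels are built around an α1 subunit that forms the pore, and auxiliary subunits set how many channels reach the membrane and how they gate. The α2δ subunits are extracellular proteins anchored at the membrane that promote trafficking of the channel, and some of them bind gabapentinoids. The β subunits sit on the cytoplasmic face, bind the α1 interaction domain and protect the channel from degradation. Most brain γ subunits act instead as transmembrane AMPA receptor regulatory proteins (TARPs), which traffic glutamate receptors and slow their closing. The 10 auxiliary subunit genes described here were chosen by name and comprise 3 α2δ genes (*Cacna2d1*, *Cacna2d2* and *Cacna2d3*), 4 β genes (*Cacnb1* to *Cacnb4*) and 3 γ genes of the TARP type (*Cacng2*, *Cacng4* and *Cacng8*). All transcript rows of each gene were summed, and all 10 genes passed the filter on low values, out of 15267 protein-coding genes tested.

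The data come from RNA immunoprecipitation followed by sequencing (RIP-seq), in which RNA that stays with an antibody-bound protein is recovered and sequenced. All 9 libraries came from cytoplasm of the cortex of newborn mice (postnatal day 0) heterozygous for the *Celf2* knock-in (KI) allele CELF2 p.R493H, so both controls carried the allele too and no WT library was compared. The 3 conditions were CELF2-KI RIP (here CELF2 RIP, with a rabbit anti-CELF2 antibody), IgG RIP (normal rabbit IgG, the background of the pulldown) and input (RNA from an aliquot of that fraction that met no antibody), each with 3 libraries that the labels call biological replicates. CELF2 is an RNA-binding protein that shuttles between nucleus and cytoplasm, and the antibody step does not separate the mutant protein from the remaining WT protein. The labels do not state whether cortices were pooled or whether replicate numbers are shared animals. The comparison asks which auxiliary subunit mRNAs were recovered with CELF2 above both controls.

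Libraries held between 15919600 and 105116427 estimated counts, and input libraries were the deepest. Levels are given as CPM, a gene's count scaled by the depth of its library, on a library size scaled by trimmed mean of M values (TMM). A gene was called at a false discovery rate (FDR) under 0.01 together with a fitted change of 2-fold or more in edgeR's quasi-likelihood test. The 45S rRNA precursor took 34.9%, 32.9% and 10.8% of counts in IgG RIP replicates 1, 2 and 3, and at most 1.76% in the other libraries. Markers of excitatory neurons summed to 2119–2930 CPM in CELF2 RIP, 1087–1274 CPM in IgG RIP, against 1202–1407 CPM in input, and 5 of 8 were called higher than in IgG RIP. Markers of inhibitory neurons summed to 608–743, 384–429 and 577–597 CPM in the same order, but they were split. Of these 8, 2 were called higher and 1 lower than IgG RIP, and 1 higher and 2 lower than input. *Sst*, called lower than both, averaged 8.25, 36.2 and 97.4 CPM, and *Lhx6*, called higher than both, 101, 21.3 and 37.9 CPM. Radial glia markers summed to 472–924, 649–762 and 1081–1290 CPM; *Slc1a3* made most of the sum in CELF2 RIP (492 ± 193 CPM), and of the 7 markers 3 were called lower than IgG RIP and 4 lower than input. Erythroid markers summed to 73.7–77.0, 281–451 and 709–916 CPM. Microglial markers summed to 91.2–125, 50.2–67.6 and 93.6–119 CPM, but *Cx3cr1* made most of the sum in CELF2 RIP (91.7 ± 15.3 CPM), 3 of the 5 tested were called lower than input, and *P2ry12* was at 0 in both pulldowns. Endothelial markers summed to 158–229, 147–324 and 198–309 CPM, and of the 5 markers 1 was called lower than IgG RIP, 2 lower than input and 0 higher than either. Of all tested genes, 13.4% were called higher and 13.6% lower than IgG RIP, and 14.6% higher and 15.5% lower than input. No marker of any list was at 0 in all 9 libraries, and that held for the skeletal muscle list too, so it does not test the identity of the tissue. By the methods, input was an aliquot of the fraction that went on to the antibodies. Marker differences between conditions are therefore differences in RNA recovered from a lysate of mixed cells, not counts of cells. The part of these markers in the values below was not tested.

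None of the 10 auxiliary subunit mRNAs met both criteria for recovery with CELF2 over both controls, against 7.58% of all tested genes. At an unadjusted p under 0.05 in both comparisons, edgeR found 1 member higher than both controls, *Cacng8*, and DESeq2's Wald test also called 0. *Cacng8* was 2.20-fold higher in CELF2 RIP than in IgG RIP by group means, but only 1.34-fold higher than in input. *Cacnb3* went the other way and was 2.78-fold lower than in IgG RIP and 2.93-fold lower than in input. The remaining 8 members lay within 2-fold of both controls.

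Over IgG RIP, 1 of 10 members was called higher (*Cacng8*, 13.4% of all genes) and 1 lower (*Cacnb3*, 13.6% of all genes). Over input, 0 were called higher (14.6% of all genes) and 1 lower (*Cacnb3*, 15.5% of all genes). Without the fold criterion, 1 member passed the FDR upward over IgG RIP (22.9% of all genes) and 2 downward (19.2%), and over input 2 upward (26.8%; *Cacnb2* and *Cacng8*) and 1 downward (20.1%). The median log2 fold change of the 10 members was 0.04 over IgG RIP, beside −0.06 for all tested genes, and −0.04 over input, beside 0.19 for all tested genes. *Cacnb3* was the 1 member called lower than both controls, a call made for 9.54% of all genes. For *Cacng8*, the lowest CELF2 RIP library was above the highest of the 6 controls (25.2% of all genes), and for *Cacnb3* the highest was below the lowest control (19.9% of all genes).

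**Figure D1:**
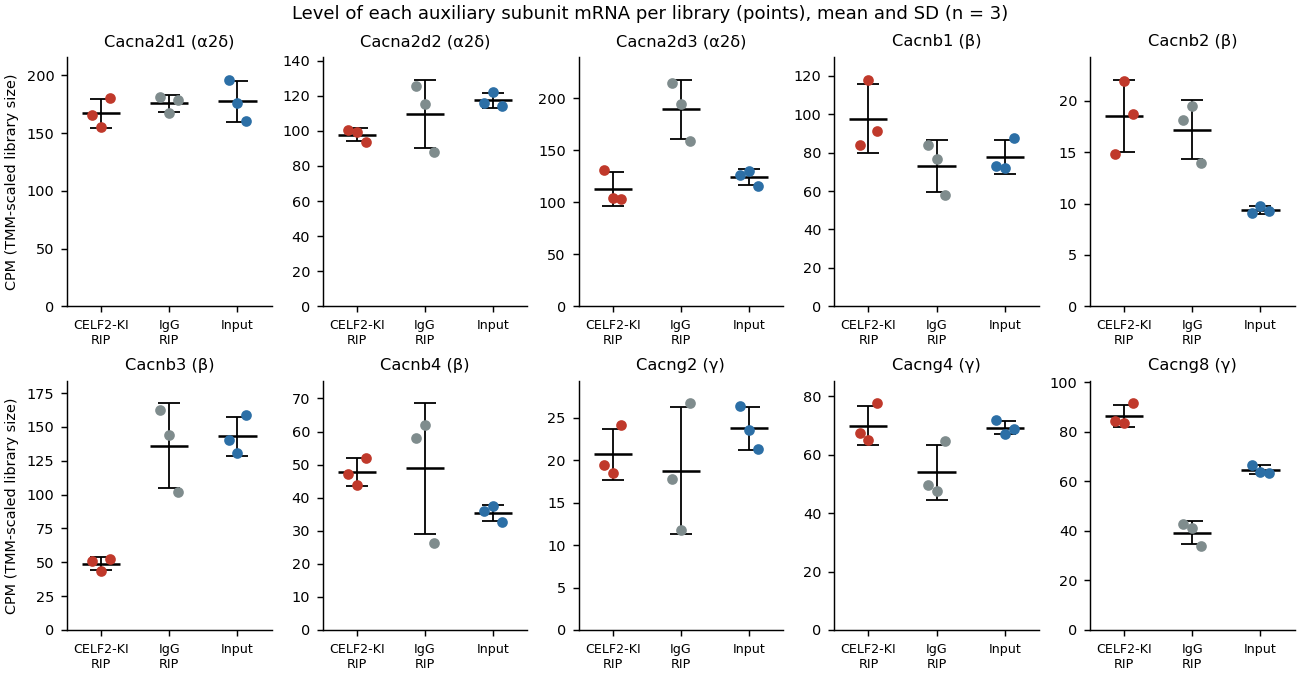
Level of each auxiliary subunit mRNA in CPM (y axis, from 0) in the 3 libraries of each condition; points are libraries, horizontal bars the mean and whiskers the SD. CELF2 RIP libraries of *Cacnb3* sit between 43.6 and 52.5 CPM, below all control libraries, and those of *Cacng8* between 83.6 and 91.4 CPM, above them.

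The α2δ genes came down with CELF2 at or below the background of the pulldown. *Cacna2d1* encodes α2δ-1, a main target of gabapentin, on chromosome 5, 15934264–16374511 (GRCm38). It was at 166, 155 and 181 CPM in CELF2 RIP replicates 1, 2 and 3, at 181, 168 and 179 CPM in IgG RIP, against 196, 176 and 161 CPM in input. The 3 conditions overlapped, and the log2 fold change was −0.07 ± 0.11 (SE) over IgG RIP and −0.09 ± 0.11 over input (FDR 0.599 and 0.503). *Cacna2d2* (chromosome 9, 107399733–107529346) encodes α2δ-2, whose loss causes ataxia and absence seizures in the ducky mouse. Its level was 101, 99.2 and 93.8 CPM in CELF2 RIP, 126, 116 and 88.2 CPM in IgG RIP, against 116, 122 and 114 CPM in input. CELF2 RIP lay below all input libraries but overlapped IgG RIP, and neither change passed the test (log2 fold change −0.17, FDR 0.316 over IgG RIP and −0.26, FDR 0.107 over input).

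*Cacna2d3* encodes α2δ-3 and was the α2δ gene that differed most between the pulldowns. It was at 131, 104 and 103 CPM in CELF2 RIP, 215, 194 and 159 CPM in IgG RIP, against 126, 130 and 115 CPM in input. All IgG RIP libraries lay above the other 6, while CELF2 RIP and input overlapped. The log2 fold change was −0.75 ± 0.14 over IgG RIP (FDR 0.00131, under 2-fold) and −0.14 ± 0.14 over input (FDR 0.425), and IgG RIP was 0.61 ± 0.14 above input (FDR 0.00725). Its gene, at chromosome 14, 28904943–29722775, spans *Lrtm1*, another tested gene, and the counting of overlapping reads by strand is not given in the sources used here. With library sizes unscaled or scaled by upper quartile, the change over IgG RIP passed 2-fold (−1.11 and −1.01), because those scalings moved the median of all genes to −0.42 and −0.32; relative to that median *Cacna2d3* was at −0.69 with TMM and −0.68 and −0.69 with them. With only curated RefSeq rows it was also called lower (−1.16, FDR 0.00438).

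The β genes went in different directions. *Cacnb3* encodes β3, a neuronal subunit of N-type channels, in 16101 bases on chromosome 15 (98628436–98644536) that no other gene of the table overlaps. It was at 50.7, 43.6 and 52.5 CPM in CELF2 RIP, at 163, 144 and 102 CPM in IgG RIP, against 140, 131 and 159 CPM in input. The highest CELF2 RIP library was thus below every control library, whereas IgG RIP and input overlapped. The log2 fold change was −1.48 ± 0.17 over IgG RIP (FDR 6.41e-05) and −1.55 ± 0.17 over input (FDR 4.16e-05), and IgG RIP against input gave −0.07 ± 0.17 (FDR 0.757). The call held without each library in turn and under each scaling, where the value over IgG RIP relative to the median of all genes was −1.42 each time. It did not hold in a test against the 2-fold threshold itself (FDR 0.0213 over IgG RIP and 0.010 over input, just above the cutoff), nor over IgG RIP with curated rows only (−1.98, FDR 0.0185).

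*Cacnb1*, the β1 subunit of skeletal muscle that is also made in brain, ran opposite to *Cacnb3* in its point estimates. It was at 84.0, 118 and 91.2 CPM in CELF2 RIP, 83.9, 76.9 and 58.0 CPM in IgG RIP, against 73.0, 72.0 and 87.8 CPM in input. CELF2 RIP lay above all IgG RIP libraries by a narrow margin and overlapped input. Its change of 0.42 ± 0.17 (log2) over IgG RIP (FDR 0.0627) and 0.33 ± 0.17 over input (FDR 0.121) did not pass the test. Its gene (chromosome 11, 98001508–98023034) overlaps *Rpl19*, a ribosomal protein gene that was called lower than both controls (−1.74 and −2.50). Skeletal muscle markers summed to 19.7–32.8 CPM in CELF2 RIP, 37.1–41.8 CPM in IgG RIP, against 14.8–22.2 CPM in input, most of it from *Ryr1* (22.3, 35.8 and 13.5 CPM on average). *Ckm*, *Tnnt3* and *Mylpf*, which define muscle fibres, averaged at most 0.323 CPM in any condition, and *Ckm* was at 0 in CELF2 RIP. *Cacna1s* averaged at most 0.347 CPM. *Acta1* averaged 1.71, 1.89 and 3.45 CPM in CELF2 RIP, IgG RIP and input, and was not called. *Myh3* averaged 0.215, 1.53 and 0.750 CPM in the same order and was called lower than both controls (−2.80 and −1.77).

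*Cacnb2* encodes β2, best known from the heart, and *Cacnb4* encodes β4, whose loss causes seizures in the lethargic mouse. *Cacnb2* was at 14.9, 21.9 and 18.7 CPM in CELF2 RIP, 18.1, 19.5 and 14.0 CPM in IgG RIP, against 9.10, 9.78 and 9.25 CPM in input. Both pulldowns lay above all input libraries and overlapped each other. The log2 fold change over input was 0.98 ± 0.18 in CELF2 RIP (FDR 0.000984) and 0.87 ± 0.18 in IgG RIP (FDR 0.00441), and CELF2 RIP over IgG RIP gave 0.11 ± 0.18 (FDR 0.646). Both rises over input were just under 2-fold, and without CELF2 RIP replicate 1 the first was called (1.12, FDR 0.000574), as was the second without IgG RIP replicate 3 (1.01, FDR 0.00123). *Cacnb4* was at 47.3, 44.0 and 52.1 CPM in CELF2 RIP, 58.2, 62.1 and 26.2 CPM in IgG RIP, against 36.0, 37.5 and 32.7 CPM in input. IgG RIP replicate 3 was the lowest library of the 9 for *Cacnb4*, and no comparison passed the test (log2 fold change −0.03 ± 0.26 over IgG RIP and 0.43 ± 0.26 over input, FDR 0.933 and 0.179).

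The γ genes held the only member called higher than IgG RIP. *Cacng8* encodes TARP γ-8, which is abundant in forebrain excitatory neurons, at chromosome 7, 3394042–3416266. It was at 84.3, 83.6 and 91.4 CPM in CELF2 RIP, 42.7, 41.3 and 34.0 CPM in IgG RIP, against 66.7, 63.6 and 63.5 CPM in input. The conditions were in the order CELF2 RIP, input and IgG RIP with no overlap between any of them. The log2 fold change was 1.14 ± 0.12 over IgG RIP (FDR 3.11e-05) and 0.42 ± 0.12 over input (FDR 0.00955), and IgG RIP was −0.72 ± 0.12 against input (FDR 0.00126). The call over IgG RIP held without each library in turn, but the estimate fell to 0.77 without scaling, 0.87 with upper-quartile scaling and 0.98 with curated rows, and the test against 2-fold gave FDR 0.216. Relative to the median of all genes it was 1.19 over IgG RIP under all 4 scalings and 0.23 over input, and over input the unscaled value turned to −0.04.

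*Cacng4* encodes TARP γ-4, which is prominent in developing brain, and *Cacng2* encodes stargazin (γ-2), the TARP lost in the stargazer mouse. *Cacng4* (chromosome 11, 107732357–107794706) was at 67.3, 65.0 and 77.6 CPM in CELF2 RIP, 49.5, 47.7 and 64.6 CPM in IgG RIP, against 71.9, 67.2 and 68.9 CPM in input. CELF2 RIP lay just above IgG RIP and across the input range. The change was 0.37 ± 0.14 on the log2 scale over IgG RIP (FDR 0.0409) and 0.01 ± 0.14 over input (FDR 0.938). *Cacng2* was at 19.4, 18.5 and 24.2 CPM in CELF2 RIP, 17.8, 11.8 and 26.7 CPM in IgG RIP, against 26.4, 23.6 and 21.4 CPM in input. All 3 conditions overlapped for *Cacng2*, and its changes of 0.13 ± 0.26 and −0.20 ± 0.25 did not pass the test (FDR 0.686 and 0.512).

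**Figure D2:**
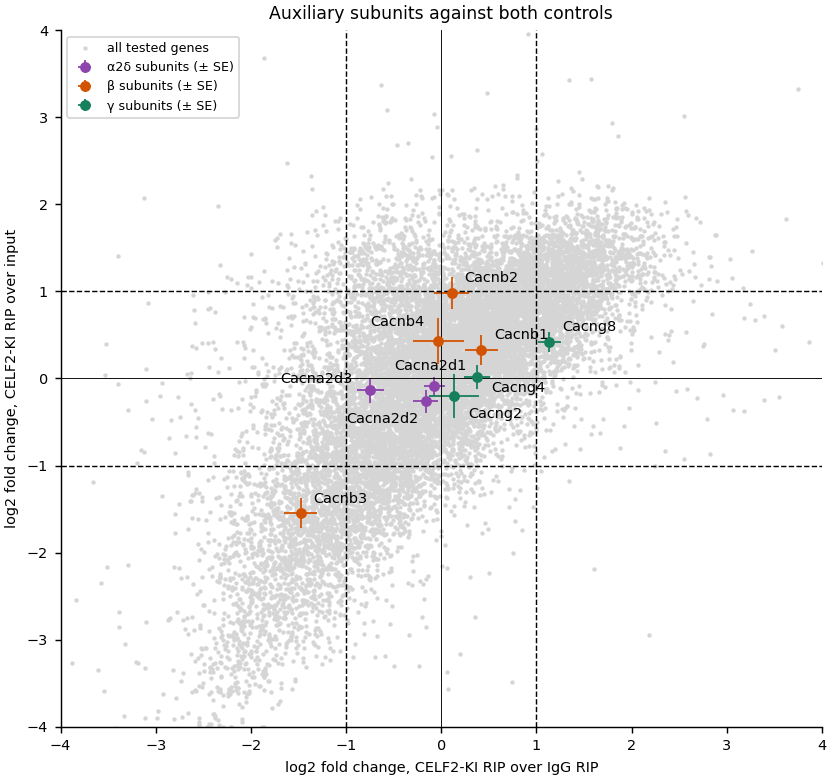
log2 fold change of CELF2 RIP over IgG RIP (x axis) and over input (y axis), with SE, for the 10 auxiliary subunits on all tested genes in grey; dashed lines mark 2-fold, and 142 genes beyond a log2 value of 4 are not drawn. *Cacnb3* is past 2-fold down on both axes, *Cacng8* is past 2-fold up on the x axis alone, and no member is in the upper right corner.

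Between the background pulldown and input, 0 of 10 members were called in either direction, against 11.8% of all genes. By FDR alone 3 members differed (23.3% of all genes), with *Cacna2d3* and *Cacnb2* higher and *Cacng8* lower in IgG RIP. When the p was left unadjusted at 0.05, edgeR's test gave 2 members higher and 2 lower, and DESeq2 called 0. Libraries of IgG RIP lay above all input libraries for 2 members, *Cacna2d3* and *Cacnb2* (27.1% of all genes), and below them for 2, *Cacng4* and *Cacng8* (29.4% of all genes). CELF2 RIP and IgG RIP did not overlap for 5 members, with *Cacnb1*, *Cacng4* and *Cacng8* above (30.0% of all genes) and *Cacna2d3* and *Cacnb3* below (27.4% of all genes). Against input, *Cacnb2*, *Cacnb4* and *Cacng8* were above (42.1% of all genes) and *Cacna2d2* and *Cacnb3* below (31.8% of all genes). The 3 comparisons share libraries, so their values are not independent of each other.

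Members of a family can take each other's place on a channel or receptor, and the make-up of each family was therefore also followed within a library. Each gene's share was taken of the counts summed over the members of its family described here. Shares need no scaling between libraries, but they weight long transcripts more and so compare libraries and not genes. *Cacnb3* made up 23.1% ± 3.48 (SD, n = 3) of the β counts in CELF2 RIP, 49.6% ± 1.75 in IgG RIP and 53.9% ± 1.44 in input. *Cacnb1* made up 45.7% ± 5.34 in CELF2 RIP, 26.8% ± 1.94 in IgG RIP and 29.2% ± 1.13 in input, and *Cacnb2* 8.64% ± 1.05, 6.35% ± 0.689 and 3.55% ± 0.355. *Cacnb4* made up 22.5% ± 2.79, 17.2% ± 3.77 and 13.4% ± 1.90, and overlapped between CELF2 RIP and IgG RIP. For *Cacnb3*, *Cacnb1* and *Cacnb2*, the CELF2 RIP libraries did not overlap either control, and the two-sided exact permutation test gave p = 0.1 in each case, the smallest that 3 against 3 libraries allow. With curated rows only, the share of *Cacnb3* was 13.1% ± 7.83, 39.9% ± 3.52 and 47.8% ± 3.37 in the same order and that of *Cacnb1* 65.3% ± 9.64, 40.4% ± 3.82 and 38.2% ± 1.48, still without overlap. *Cacnb2* did not keep its order with those rows, at 5.03% ± 0.838 in CELF2 RIP and 6.59% ± 2.74 in IgG RIP, which overlapped, and 2.79% ± 0.342 in input.

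Among the 3 γ members, *Cacng8* made up 48.9% ± 1.39 of the counts in CELF2 RIP, 35.6% ± 7.47 in IgG RIP and 41.0% ± 0.473 in input, again without overlap (exact permutation p = 0.1 against each control). Other tested γ genes were not in that sum, such as *Cacng5* at 53.0, 17.4 and 31.5 CPM and *Cacng7* at 20.2, 26.6 and 38.7 CPM in the same order. The γ shares therefore hold among the 3 members only. *Cacng4* was the counterpart, with 39.5% ± 0.631, 48.0% ± 3.32 and 44.0% ± 0.714 (exact permutation p = 0.1 against each control). The share of *Cacna2d3* in the α2δ counts was 29.8% ± 2.92 in CELF2 RIP and 29.6% ± 0.813 in input (exact permutation p = 0.9), below its 39.7% ± 2.12 in IgG RIP (exact permutation p = 0.1). With curated rows only, it was 18.8% ± 5.37 in CELF2 RIP, against 35.3% ± 2.31 in IgG RIP and 26.7% ± 2.26 in input, and CELF2 RIP then lay below input too, at 15.7% to 25.02% beside 25.04% to 29.3%. *Cacna2d1* made up 44.3% ± 3.20, 37.3% ± 4.08 and 42.3% ± 2.11, overlapping in both comparisons. That overlap was lost with curated rows only, at 56.2% ± 5.73, 39.7% ± 3.18 and 45.2% ± 2.59. The lowest CELF2 RIP library was then at 50.7% and the highest control library at 47.8%. A share falls when another member rises, so shares within a family are not separate results.

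**Figure D3:**
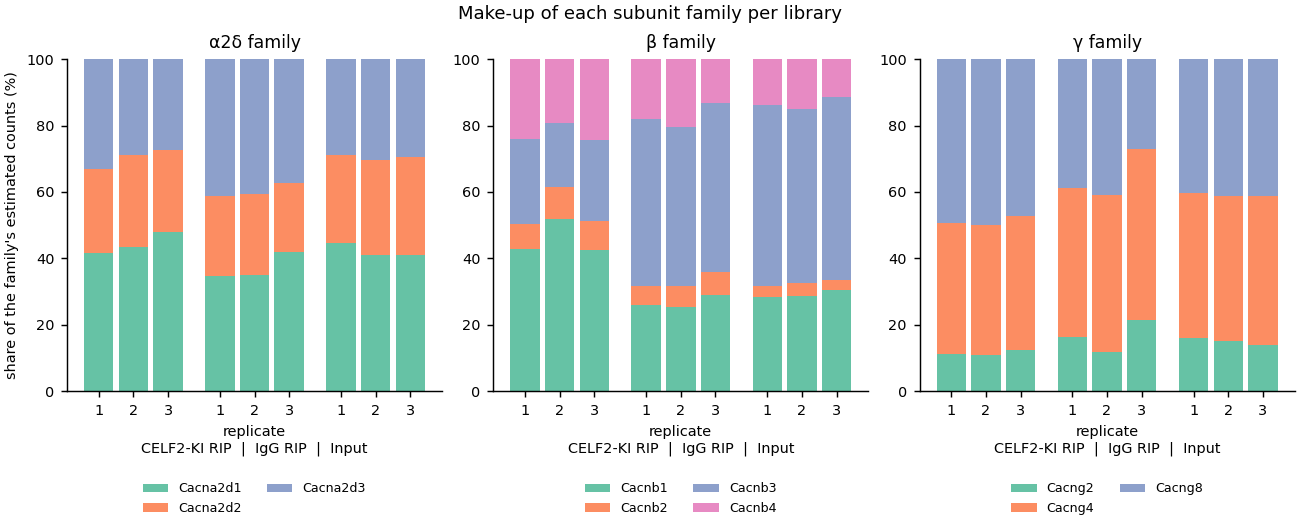
Share of each gene in the estimated counts of its family's members described here (y axis, percent) in each library, with replicates 1 to 3 of CELF2 RIP, IgG RIP and input from left to right. *Cacnb3* takes 23.1% of β counts on average in CELF2 RIP and 49.6% and 53.9% in the controls, and *Cacnb1* 45.7% against 26.8% and 29.2%.

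The deposited table divides each gene over RefSeq transcripts, so splice variants could be followed as rows, with the caution that kallisto shares reads between overlapping transcripts by estimation and the table holds no error for that step. The 10 members had 74 rows, 58 of which passed the filter, from 1 row for *Cacng4* and *Cacng8* to 14 for *Cacnb3*. Over IgG RIP, 1 member row was called higher (3.19% of all rows) and 0 lower (3.15% of all rows); over input, 0 were called higher (0.940%) and 0 lower (4.51%), and edgeR's unadjusted p was under 0.05 for 3 rows that were higher and 9 that were lower. TMM factors over rows put values lower than the gene fit does, by 0.23 over IgG RIP and 0.48 over input for the single row of *Cacng8*. In *Cacnb3*, 12 of 13 tested rows lay below 0 over IgG RIP and 12 of 13 over input, although none was called on its own and the lowest row FDR was 0.0656 and 0.0284. Its main row, NM_001044741.2, took 50.3% of the counts of *Cacnb3* and was at 17.4, 2.86 and 16.6 CPM in CELF2 RIP, 70.3, 56.2 and 15.5 CPM in IgG RIP, against 95.9, 79.3 and 103 CPM in input, so IgG RIP replicate 3 was near the pulldown for this row but not for the gene.

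Of the 8 members with at least 2 tested rows, *Cacna2d1* was the 1 with changed transcript usage, by a Simes-combined FDR of 1.35e-05 over IgG RIP (2.15% of 8798 genes tested were called). The gene total of *Cacna2d1* was level across the conditions, as given above, while its rows were not, and 3 of them passed the usage test on their own (0.717% of rows tested). The curated row NM_001110845.1 held 240, 377 and 310 counts in CELF2 RIP replicates 1, 2 and 3, 0 in all 3 IgG RIP libraries and 353, 357 and 56 in the deeper input libraries. As a share of the gene this was 11.6% to 18.7% in CELF2 RIP and 0.564% to 2.86% in input. A floor of 3 counts per library would be 0.104% to 0.177% of the gene in IgG RIP. Set against that floor, the row was 91.7-fold higher in CELF2 RIP than in IgG RIP (row FDR 0.00294). The floor is no upper limit, since kallisto's division of reads between overlapping rows can leave a row at 0. This row was the member row called above, and its change over input of 2.36 had an FDR of 0.0984. Between IgG RIP and input, 0 member rows were called higher (0.879% of all rows) and 1, again this row, lower in IgG RIP (1.65%). The call over IgG RIP was lost with replicate number as a block, without CELF2 RIP replicate 3 and without input replicate 2, while 3 member rows were called without CELF2 RIP replicate 1 or IgG RIP replicate 3. The call between IgG RIP and input was lost without each library in turn other than IgG RIP replicate 3, without which 4 member rows were called.

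The predicted row XM_006535619.3 ran the other way. It held 18, 0 and 25 counts in CELF2 RIP, 559, 346 and 342 in IgG RIP, against 1399, 1707 and 1578 in input, or at most 1.23% of the gene in CELF2 RIP, 13.7% to 20.4% in IgG RIP and 10.7% to 15.9% in input. Its usage relative to the other rows fell by 4.51 on the log2 scale over IgG RIP (FDR 0.000636) and by 4.00 over input (FDR 0.00381), and over input *Cacna2d1* passed as a gene too (Simes-combined FDR 0.00837, 1.30% of genes and 0.502% of rows called). The usage call over input was lost with replicate number as a block (FDR 0.0266) and without any 1 of the 3 CELF2 RIP and 3 input libraries (FDR up to 0.175), while the call over IgG RIP held in all 11 alternatives (FDR at most 0.000565). The usage FDR of XM_006535619.3 itself over IgG RIP was above 0.01 without CELF2 RIP replicate 1 or 2. A further row, NM_009784.2, held 33, 162 and 4 counts in CELF2 RIP, 0 in all IgG RIP libraries and 350, 214 and 103 in input; its usage FDR of 0.00916 over IgG RIP passed in 2 of 11 alternatives. The main row NM_001110844.1 took 70.9% of all *Cacna2d1* counts and between 49.8% and 76.8% in each library. The genome and transcript sequences behind these rows were not used here, so the exons that tell them apart are not given.

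**Figure D4:**
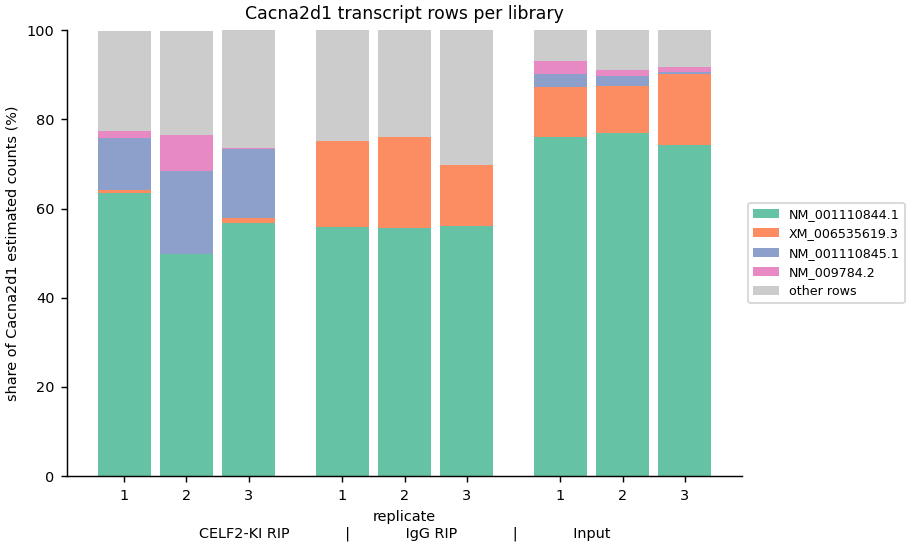
Share of the *Cacna2d1* estimated counts (y axis, percent) held by 4 named RefSeq rows and by the other rows together in each library. NM_001110845.1 takes 11.6% to 18.7% in CELF2 RIP and 0 in IgG RIP, and XM_006535619.3 takes at most 1.23% in CELF2 RIP and at least 10.7% in the controls.

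Main rows of the other members were less regular. NM_001174049.1 of *Cacna2d2* ranged from 0 to 53.5% of the gene between libraries, and NM_145121.3 of *Cacnb1* took 66.3% to 73.3% of the gene in CELF2 RIP and 14.1% in IgG RIP replicate 3. NM_023116.4 of *Cacnb2* took 16.2% to 34.9% in CELF2 RIP, below its 39.0% to 48.2% in IgG RIP and 35.8% to 41.6% in input. NM_009785.1 of *Cacna2d3* took 31.9% to 47.8% in CELF2 RIP and 64.0% to 70.3% in input. XM_011239015.1 of *Cacnb4* took 33.5% to 55.2% in CELF2 RIP, 40.9% to 67.3% in IgG RIP and 16.9% to 17.7% in input. XM_006520371.2 of *Cacng2* took 63.2% to 87.8% over all 9 libraries. None of the 7 genes other than *Cacna2d1* with at least 2 tested rows passed the usage test as a gene, and the lowest Simes-combined FDR among them was 0.486, for *Cacna2d3* over input.

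Pore subunit genes, other auxiliary subunit genes and partner genes were compared in the same fit. The pore list also holds the T-type pores *Cacna1g*, *Cacna1h* and *Cacna1i*, which are not high-voltage-activated channels. They are part of the counts and medians below, at 0.65, −0.88 and 0.54 over IgG RIP and 1.05, −0.04 and 0.94 over input. Of 10 pore subunit genes, 9 were tested, with *Cacna1s* of skeletal muscle left out by the filter. Over IgG RIP 1 pore gene was called higher (13.4% of all genes) and 0 lower (13.6%), and over input 3 higher (14.6%) and 0 lower (15.5%). The median change of the 9 genes was 0.54 on the log2 scale over IgG RIP and 0.91 over input. It was 0.04 and −0.04 for the 10 auxiliary subunits, and −0.06 and 0.19 for all tested genes. The background pulldown was raised too, with a pore gene median of 0.49 for IgG RIP over input and 8 of 9 above 0. *Cacna1b*, the N-type pore, was highest at 1300 ± 344 CPM (SD, n = 3) in CELF2 RIP, 643 ± 90.7 CPM in IgG RIP, against 430 ± 14.0 CPM in input, and was called over both (1.02 and 1.60, FDR 0.000837 and 4.64e-05). Its margin over IgG RIP was at the 2-fold line, and the call was lost under 11 of 19 alternatives. *Cacna1c* (1.18) and *Cacna1g* (1.05), the L-type and T-type pores also called over input, are named after their values were seen. *Cacna1f*, the retinal L-type pore, was lowest over IgG RIP at −2.13 (FDR 0.0600) and stood at 0.287 ± 0.295 CPM in CELF2 RIP.

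The 6 other auxiliary genes included 5 that were tested, and *Cacna2d4* was left out by the filter. *Cacng5*, another γ gene of the TARP type, was at 53.0 ± 4.45 CPM in CELF2 RIP, 17.4 ± 3.65 CPM in IgG RIP, against 31.5 ± 1.58 CPM in input, and was called higher than IgG RIP (1.61 ± 0.16, FDR 2.62e-05) but under 2-fold over input (0.75 ± 0.16, FDR 0.00195). *Cacng1*, the muscle γ-1 subunit, was lowest at −1.16 over IgG RIP (FDR 0.0586), with library levels between 0.480 and 2.19 CPM. These genes lie beside members in the genome. *Cacng5* and *Cacng1* flank *Cacng4* (0.37 over IgG RIP) on chromosome 11, and *Cacng7* and *Cacng6*, named for their position after their values were seen, flank *Cacng8* on chromosome 7 at −0.40 and −0.50 over IgG RIP (FDR 0.233 and 0.301). Neighbouring γ genes thus had estimates of both signs.

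Of 12 partners of α2δ and β subunits (thrombospondins and *Lrp1* for α2δ, the RGK GTPases and Stac adaptors for β subunits and the pore), 0 were called higher (13.4% of all genes) and 3 lower (13.6%) over IgG RIP. Over input, 0 were called higher (14.6% of all genes) and 1 lower (15.5%). *Rem2*, an RGK GTPase that inhibits channels through the β subunit, was called lower than both controls, at 2.0 ± 0.446 CPM in CELF2 RIP, 8.04 ± 1.12 CPM in IgG RIP, against 10.8 ± 0.202 CPM in input. *Stac3* of muscle excitation–contraction coupling was lowest over IgG RIP (−2.59, FDR 0.00281) and *Thbs1*, a secreted thrombospondin that binds α2δ-1, was highest (0.50, FDR 0.00730, under 2-fold). *Stac3* was at 1.29 to 5.19 CPM in IgG RIP and its call was lost under 6 of 19 alternatives. *Thbs3* was the other gene called lower, named after its values were seen. Over input neither *Stac3* (−0.37, FDR 0.586) nor *Thbs3* (−0.50, FDR 0.128) was called. Both were called higher in IgG RIP than in input (2.23 and 1.06).

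Of 11 AMPA receptor subunits and partners of TARPs, 2 were called higher (13.4% of all genes) and 1 lower (13.6%) over IgG RIP. Over input, 0 were called higher (14.6%) and 2 lower (15.5%). *Shisa6*, an auxiliary protein of AMPA receptors, was highest at 208 ± 28.8 CPM in CELF2 RIP, 90.4 ± 11.9 CPM in IgG RIP, against 127 ± 3.47 CPM in input (1.20 ± 0.13 over IgG RIP, FDR 4.52e-05), but its direction flipped to −1.07 with curated rows alone (FDR 0.164). *Dlg4* encodes PSD-95, the scaffold that holds TARPs at the synapse, and was called lower than both controls at 100 ± 10.2, 260 ± 8.25 and 309 ± 27.3 CPM (−1.37 and −1.62, FDR 1.15e-05 and 3.04e-06). *Shisa7* was the other gene called higher over IgG RIP and *Cnih2* the other called lower than input, both named after their values were seen. The AMPA receptor genes *Gria1* to *Gria4* lay between −0.42 and 0.36 over IgG RIP, and none was called.

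**Figure D5:**
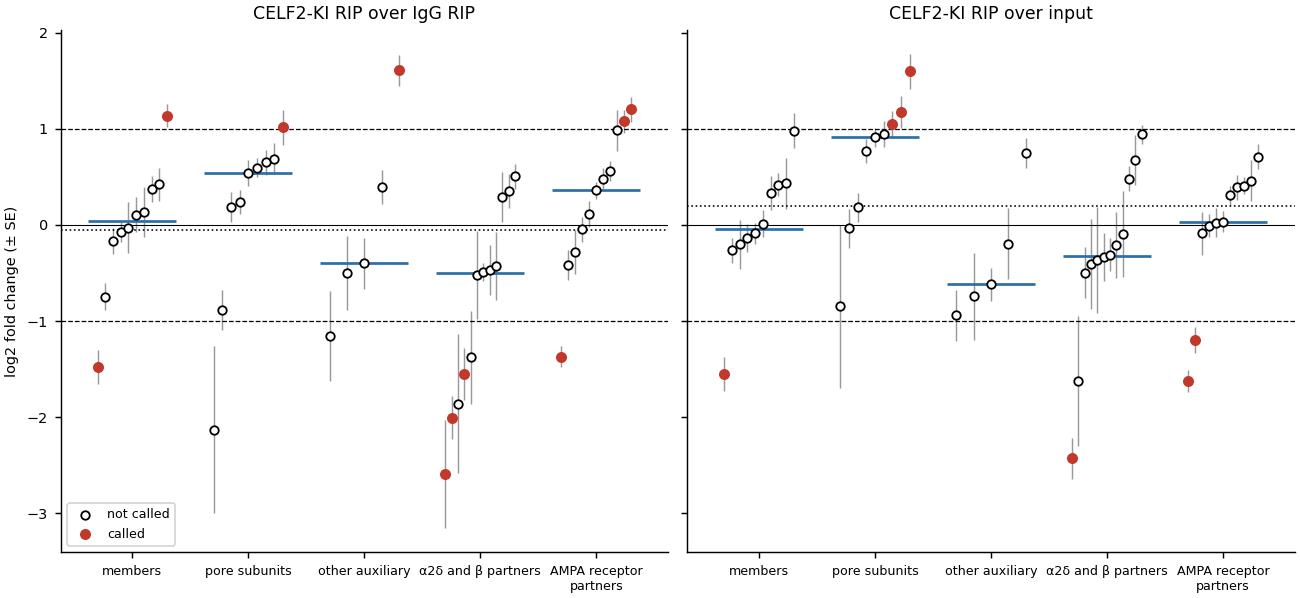
log2 fold change with SE (y axis) of every tested gene of the 5 lists, over IgG RIP (left) and over input (right); filled points were called, blue bars are list medians, the dotted line is the median of all tested genes and dashed lines mark 2-fold. The pore subunits have medians of 0.54 and 0.91, and the auxiliary subunits 0.04 and −0.04.

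For the member with the highest mean CPM in each family, the genes with the most similar levels were found. This used Pearson's r of log2 CPM over the 9 libraries. The libraries share conditions and depth, so r can follow differences between conditions. That does not hold for *Cacna2d1*, whose conditions overlapped. The genes named were picked as the highest in r among 15267 tested genes, and no r was tested. CPM weights long transcripts more, so choosing members by mean CPM ranks none by abundance. Within CELF2 RIP, *Cacng8* and *Cacnb1* were above *Cacng4* and *Cacnb3*. For *Cacnb3* the genes most like it were *Ccdc106* (0.991), *Rundc3a* (0.990) and *Sh3glb2* (0.990). For *Cacng4* they included *Tpp1* (0.963) and *Plscr1* (0.956), and for *Cacna2d1* they included *Med24* (0.864) and *Glrx* (0.774).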

How the data were processed

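Per the labels and the methods of the study, RNA of the 9 libraries was depleted of rRNA, made into directional libraries, quality checked (FastQC), trimmed (fastp), cleared of remaining rRNA reads (Ribodetector) and pseudoaligned with kallisto 0.51.1. The authors deposited 1 table of estimated counts per RefSeq transcript, not normalized for depth or length; the methods name Ensembl as the transcriptome, the submitters' notes list mm10, and strand settings are not given in the sources used here. All 9 columns were used and 0 were left out.

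Rows were joined by accession, ignoring version, to a RefSeq gene table of GRCm38.p6 (86722 of 107384 rows matched), which also gave coordinates. Rows without a gene held 9.24% to 43.5% of a library and stayed out. Protein-coding rows were summed per gene and rounded. The 15267 genes that reached 0.5 CPM in 3 or more libraries were fitted with edgeR 4.0.16 in R 4.3.3, with TMM factors and a mean per condition over all 9 libraries. FDR values are Benjamini-Hochberg adjusted over all genes or all rows, and SE is the log2 fold change divided by the root of F. Transcript usage was tested with edgeR's diffSpliceDGE, and family shares with two-sided exact permutation tests. DESeq2 1.42.0, other scalings, no filter, glmTreat, a replicate block, curated rows and leave-outs were alternatives. Steps were tested on simulated data. Levels were not compared between genes, since transcript lengths were not used here.

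The members and the gene lists (pore subunits, other auxiliary subunits, partners of α2δ and β, AMPA receptor partners, cell type markers) were chosen with earlier results of these data known. From each list other than the markers, the genes highest and lowest over IgG RIP and any called in both comparisons are named. For the member of each family with the highest mean level, the 3 genes most like it are named, except 2 that are not reported here, and for each member the row with the most counts and any row called in the usage test. Libraries of 1 condition varied beyond sampling noise (chi-square per gene 11.9 to 44.1), and p-values measure the spread between these libraries only. The floor of 3 counts covers counting error alone, since reads carry no molecular identifiers. Deviations from condition means correlated weakly across 15267 genes between same-numbered CELF2 RIP and input libraries (r = 0.110, 0.117 and 0.122 for numbers 1, 2 and 3). The numbers may therefore pair these libraries, but the labels do not state it. Values were lower for IgG RIP with CELF2 RIP (−0.056, 0.043 and 0.014) and with input (0.030, 0.065 and 0.038). The main tests used no pairing, and the replicate block was applied to all conditions together. Genes are not independent replicates in these correlations.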

Additional observations from a re-analysis of the deposited data

How the results depend on the processing

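Of 30 member fold changes (10 members in 3 comparisons), 18 kept their direction under all 19 alternatives, and no reversed value had an FDR under 0.01. Calls turned on the 2-fold line and on the rows summed: testing against 2-fold itself called 0 members over IgG RIP, 0 over input and 0 lower than both controls. Curated rows called 1 member over IgG RIP and 0 lower than both. Rows whose version matched the gene table, chosen after seeing the data, called 2 over input and 2 lower than both, with *Cacna2d3* added, and left *Cacng4* and *Cacng8* without a row. The cause was not tested.

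Reversed log2 fold changes of CELF2 RIP over IgG RIP were *Cacnb2* (−0.27) and *Cacng2* (−0.23) without scaling, −0.16 and −0.13 with upper-quartile factors, −0.56 and −0.35 with curated rows and −0.54 and −0.34 with version-matched rows. *Cacna2d1* turned to 0.22 with curated and 0.31 with version-matched rows, *Cacnb4* to 0.066 with curated rows, and *Shisa6* to −1.07 and −1.05. Over input, *Cacng4* turned to −0.12 with DESeq2 size factors, −0.13 in DESeq2's test, −0.45 without scaling, −0.22 with upper-quartile factors, −0.10 without the filter, −0.21 with only the 6 libraries compared and −0.015 with curated rows; without scaling *Cacnb1* turned to −0.14, *Cacnb4* to −0.028 and *Cacng8* to −0.041. IgG RIP over input turned to 0.010 for *Cacna2d1* with upper-quartile factors. Most of these estimates lay near 0 before, and across scalings the median of all genes ranged from −0.42 to −0.06 over IgG RIP and from −0.27 to 0.19 over input. The split of all calls moved with them, from 2050 higher and 2069 lower over IgG RIP to 937 and 3421 without scaling, and over input from 2226 and 2366 to 531 and 3581. The test against 2-fold gave 545 and 622 over IgG RIP and 339 and 1117 over input.

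With replicate number as a block, *Cacnb4* over IgG RIP turned to 0.033. The block left 0 member rows called over IgG RIP, 0 rows between IgG RIP and input, and 0 members with changed usage over input; it also lost the usage calls of the *Cacna2d1* rows NM_009784.2 over IgG RIP (FDR 0.0372) and XM_006535619.3 over input (FDR 0.0121), and changed no other member call. Without scaling, 2 member rows were called over IgG RIP and 0 between IgG RIP and input.

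Leaving out 1 library at a time gave 1 to 2 members called over input, 0 to 1 between IgG RIP and input, 0 to 3 rows over IgG RIP, 0 to 2 rows over input, 0 to 4 rows between IgG RIP and input, and 0 to 1 members with changed usage over input. Over IgG RIP it gave log2 fold changes of −0.034 to 0.24 for *Cacnb2*, −0.34 to 0.19 for *Cacnb4* and −0.098 to 0.47 for *Cacng2*; over input −0.12 to 0.065 for *Cacng4*. For IgG RIP over input it gave −0.10 to 0.045 for *Cacna2d1*, −0.20 to 0.042 for *Cacna2d2*, −0.20 to 0.056 for *Cacnb1* and −0.21 to 0.10 for *Cacnb3*. A *Cacna2d1* row with 0 counts in IgG RIP rests on gene totals of 1692 to 2893 counts there.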
